A study of Mus musculus with 9 samples.

Results

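The genes described here are the nuclear-encoded subunits of the mitochondrial respiratory chain and ATP synthase, with their name-sharing assembly factors and isoforms. They were taken as every gene whose name begins with Nduf, Uqcr, Atp5, Sdh, Cox4i, Cox5, Cox6, Cox7 or Cox8, names containing -ps left out, with at least 10 raw counts in each of the 9 libraries. Of 53465 genes in the table, 94 met the rule, 45 of complex I, 8 of complex II, 8 of complex III, 16 of complex IV and 17 of complex V. By role, 20 are core subunits, 55 accessory subunits, 12 assembly factors, 3 isoforms known from other tissues, 2 factors associated with the chain and 2 gene copies. The gene copies, Ndufb4c and Cox6c2, are annotated as processed pseudogenes. All 94 passed the filter on low counts that left 18501 genes for testing. Another 7 genes carried the names but had under 10 counts in at least 1 library, among them Cox6a2, Cox7a1 and Cox8b, the isoforms of heart and skeletal muscle. The members just inside the minimum were Cox4i2, with 12 to 37 counts, and Atp5g2, with 14 to 61. Of those just outside, Ndufs6b had 6 to 20 counts and Cox7a1 4 to 30.

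RNA was sequenced from the whole brains of 9 male C57BL/6 mice, 3 per group, which were 7 weeks old at the start. CON mice ate standard chow and received saline. DNP mice, the model of painful diabetic neuropathy, ate a 60% fat diet over 4 weeks. Streptozotocin, which destroys the insulin-producing cells of the pancreas, was then injected daily (50 mg/kg, intraperitoneal) for 7 days, followed by saline. BAC mice had the same diet and streptozotocin and were then injected with baclofen, which activates GABA-B receptors, daily for 7 days (8 mg/kg, intraperitoneal). Diabetic mice entered the study only with high fasting glucose and lowered pain thresholds, so both diabetic groups are selected responders to the same induction. Each library came from a different mouse, and p-values measure the spread between mice within the groups.

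Complex I and complex II pass electrons from NADH and succinate to ubiquinone, complex III passes them on to cytochrome c, complex IV reduces oxygen, and complex V makes ATP from the proton gradient that complexes I, III and IV build. Most subunits are encoded in the nucleus, and a core set of complexes I, III, IV and V is encoded in mitochondrial DNA, while complex II is wholly nuclear. Neurons rely on this pathway for most of their ATP. Many nuclear genes of the chain have promoters without a TATA box that hold sites for NRF1, for ETS factors such as GABP, and for YY1.

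Promoters, from 250 bases before to 50 after the start, were matched in RefSeq (GRCm38.p6) for 77 of the 94 genes, and motifs were searched on both strands. The core NRF1 motif GCATGCGC was in 12 of them, 15.6%, against 4.97% of the promoters of all genes tested and 3.61% of all promoters. Its longer form, the core with a further GC at its 5′ end, was in 9.09% against 1.89% of tested genes. The ETS motif CCGGAAG was in 20 promoters, 26%, against 16.3%, and the YY1 core ATGGCGGC in 10.4% against 4.54%. TATAAA was in 7.79%, against 7.25% of tested genes and 13.3% of all promoters. CCAAT was the most frequent motif searched, in 33 promoters, 42.9%, near the 38.3% of tested genes and 39% of all promoters. These matches describe the letters and were not tested as binding sites. Stretches of 120 bases upstream of 4 genes are shown as examples, each ending before the RefSeq start and before the first base annotated to the gene in GENCODE. They carry an NRF1 or ETS motif and belong to genes whose values are given further on, 2 of complex I, 1 of complex III and 1 of complex V. The stretches of Sdhd and Sdhaf3 of complex II, also described further on, hold an ETS motif too and are not shown. The Ndufa6 stretch ends 31 bases further upstream than the RefSeq start alone would place it, that of Atp5e 4 and that of Uqcrh 1. Capitals mark the motif, and CTTCCGG is the ETS motif read on the other strand.
Ndufa6, an accessory subunit of complex I, chr15:82354323-82354442, minus strand, NRF1 core: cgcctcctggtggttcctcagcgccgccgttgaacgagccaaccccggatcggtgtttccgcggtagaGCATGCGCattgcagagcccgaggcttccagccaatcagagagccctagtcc
Ndufaf4, an assembly factor of complex I, chr4:24897963-24898082, plus strand, NRF1: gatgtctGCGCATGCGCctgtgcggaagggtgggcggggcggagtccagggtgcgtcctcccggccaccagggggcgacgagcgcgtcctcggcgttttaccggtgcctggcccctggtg
Uqcrh, the hinge protein of complex III, chr4:116075072-116075191, minus strand, ETS: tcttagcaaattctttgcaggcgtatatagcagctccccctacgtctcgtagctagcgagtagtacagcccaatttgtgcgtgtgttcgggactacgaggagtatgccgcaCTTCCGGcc
Atp5e, the epsilon subunit of ATP synthase, chr2:174464106-174464225, minus strand, ETS: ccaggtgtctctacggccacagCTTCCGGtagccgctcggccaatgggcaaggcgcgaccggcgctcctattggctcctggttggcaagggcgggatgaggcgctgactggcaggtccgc
The 94 genes lie on 19 chromosomes, with 3 on the X chromosome and at most 8, on chromosome 2, on any other.

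Libraries held 13107382 to 16008129 counted reads. They differed in the markers of brain regions. Summed CPM (TMM-scaled counts relative to library depth) of 8 brainstem and spinal cord markers were 333 in DNP 1, 435 in BAC 1 and 361 in BAC 3 and 0.273 to 28.6 in the other libraries. Cerebellar granule cell markers were highest in CON 2, at 5600 CPM, and in BAC 1, at 2800, and lay between 66.3 and 897 elsewhere, and the cerebellar gene Gabra6 was at 0 in DNP 2, DNP 3 and BAC 2. Results are therefore also given with these regional marker scores as covariates and without CON 2, DNP 1, BAC 1 and BAC 3. The latter fit keeps CON 1, CON 3, DNP 2, DNP 3 and BAC 2, so its BAC values rest on BAC 2 alone.

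Expressed per length, the chain genes were abundant transcripts. Their median was 27.1 FPKM (fragments per kilobase of gene length, scaled by library depth, mean of the 9 libraries) against 3.25 over all genes tested. The most abundant were Cox8a and Cox6a1, small accessory subunits of complex IV, at 448 and 267 FPKM, followed by Atp5b and Atp5a1, the catalytic beta and the alpha subunit of ATP synthase, at 146 and 134. Core subunits had a median of 39.8 FPKM, accessory subunits 32.2 and assembly factors 6.67. The isoforms of other tissues were lowest, at 1.14, with Cox6b2, the testis form of Cox6b, at 0.797.

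Complexes differed more in their range than in their median. Complex III was the most even, from 27.7 FPKM for Uqcrb, an accessory subunit, to 79.7 for Uqcrfs1, the Rieske iron-sulphur protein, with a median of 40.0. The name rule gave it no assembly factors or isoforms of other tissues, against 8 assembly factors in complex I and 4 in complex II. Complex I had a median of 20.4 and ran from 2.16 for the assembly factor Ndufaf6 to 102 for Ndufa6. Complex II had a median of 15.4, from 2.48 for the assembly factor Sdhaf3 to 76.7 for Sdha, the flavoprotein that oxidises succinate. Its 4 core subunits alone ran from 20.0 to 76.7, with a median of 49.2. Complexes IV and V had medians of 34.0 and 29.8. In complex V the range ran from 1.33 for Atp5g2, 1 of 3 genes for the c subunit, to 146 for Atp5b. Some low levels stand beside annotated gene copies that share stretches of sequence with the gene, as described further on for Cox7c, Atp5l and Atp5g2.

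**Figure D1:**
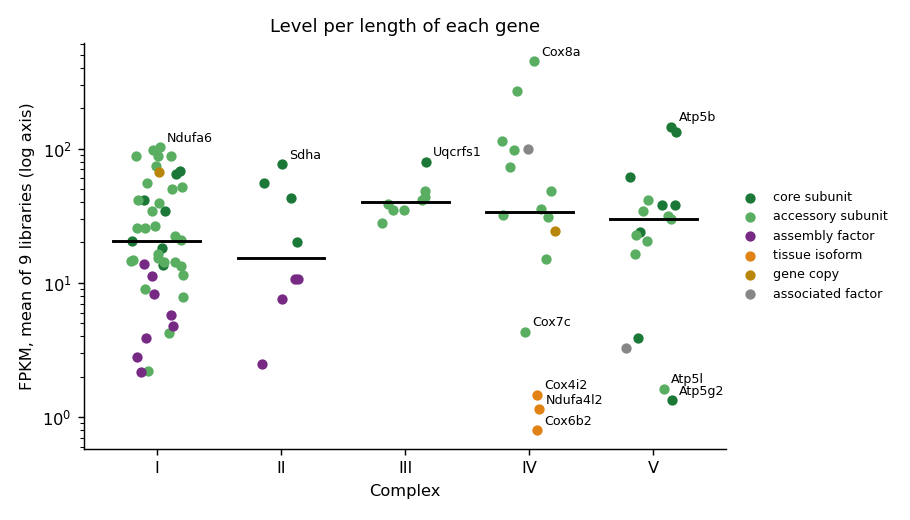
Level of each of the 94 genes in FPKM, mean of the 9 libraries, on a log axis, by complex, with colour for role and a black bar for the median of each complex. Complex III spans 27.7 to 79.7 FPKM, and complex IV spans 0.797 (Cox6b2) to 448 (Cox8a).

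The comparison of DNP with CON asks how the diabetic state with pain differs from health. Nuclear chain transcripts had higher levels in DNP brains in all 5 complexes, with median log2 fold changes from 0.23 in complex II to 0.47 in complex IV. The summed CPM of the 94 genes was 7580, 7690 and 7540 in CON, 10500, 8760 and 9400 in DNP and 8360, 8430 and 10000 in BAC. Each of the 6 diabetic brains lay above each of the 3 controls, and DNP and BAC overlapped. Read over genes, the mean deviation of log2 CPM from each gene's mean over the libraries was −0.23, −0.18 and −0.21 in CON, 0.26, 0.05 and 0.16 in DNP and −0.03, −0.02 and 0.20 in BAC. Of the 94 genes, 9, 18 and 11 stood above their own mean in the CON libraries, 84, 68 and 80 in DNP and 36, 43 and 82 in BAC. The control brains were close to each other, while DNP 1 and BAC 3 stood highest within their groups. In these bulk samples more cells rich in mitochondria and more RNA per cell cannot be told apart.

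**Figure D2:**
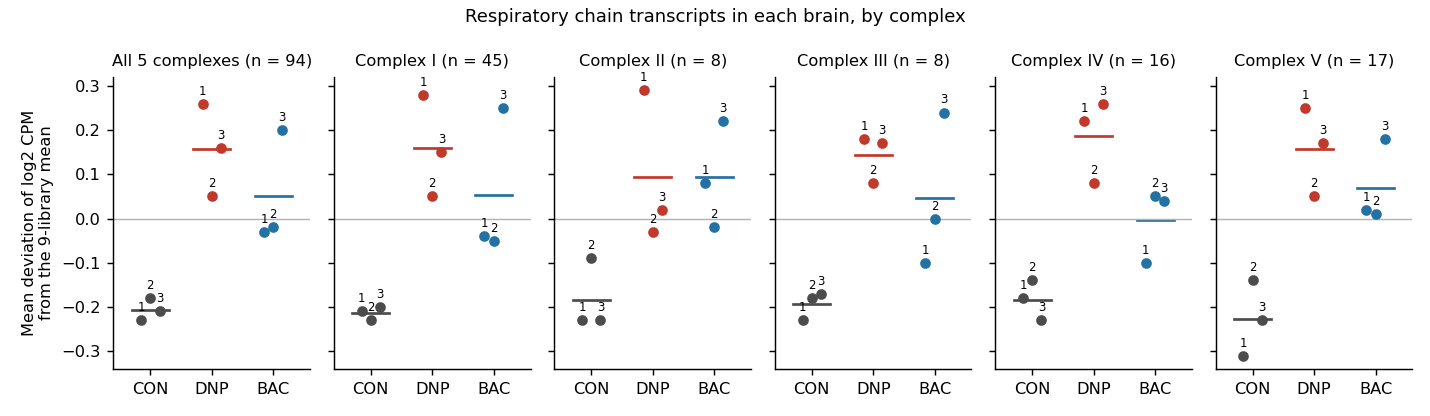
Mean deviation of log2 CPM from the mean of the 9 libraries, for all 94 genes and for each complex, with 1 numbered point per library and a bar at the group mean. The CON points lie below 0 in every panel, from −0.31 to −0.09, and the DNP points lie above 0 apart from DNP 2 in complex II.

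In the edgeR fit 91 of the 94 genes had a higher level in DNP, against 51.4% of all genes tested. The median log2 fold change was 0.38, or 1.31-fold, against 0.01 over all genes. No gene, member or other, passed an adjusted p of 0.05 in edgeR (0.0% of genes tested). At an unadjusted p under 0.05 there were 48 members, all higher, against 11.2% of all genes in either direction and 5.71% higher. DESeq2 gave an adjusted p under 0.05 to 12 members, all higher, against 1.85% of all genes in either direction and 0.8% higher. They were Ndufa1, Ndufa2, Ndufb11, Ndufs5 and Ndufb4c of complex I, Sdhb and Sdhaf4 of complex II, Cox6b1, Cox6c and Cox7a2l of complex IV, and Atp5e and Atp5o of complex V. For 58 members the lowest DNP library lay above the highest CON library, against 9.59% of all genes, and for 0 members the DNP libraries all lay below the CON libraries, against 8.63%.

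The count of 48 moved with the model. With cerebellar and brainstem scores as covariates, a fit with fewer residual degrees of freedom, it was 15 of 94, 14 of them higher. The share of all genes in that fit was 12.1%, against 11.2% without the covariates. With the covariates 86 members had a higher level, with a median of 0.34. Without CON 1 the count was 28, against 11.2%, with a median of 0.39. Without the 4 libraries CON 2, DNP 1, BAC 1 and BAC 3 it was 56, 55 of them higher, against 17.2%, with a median of 0.38.

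**Figure D3:**
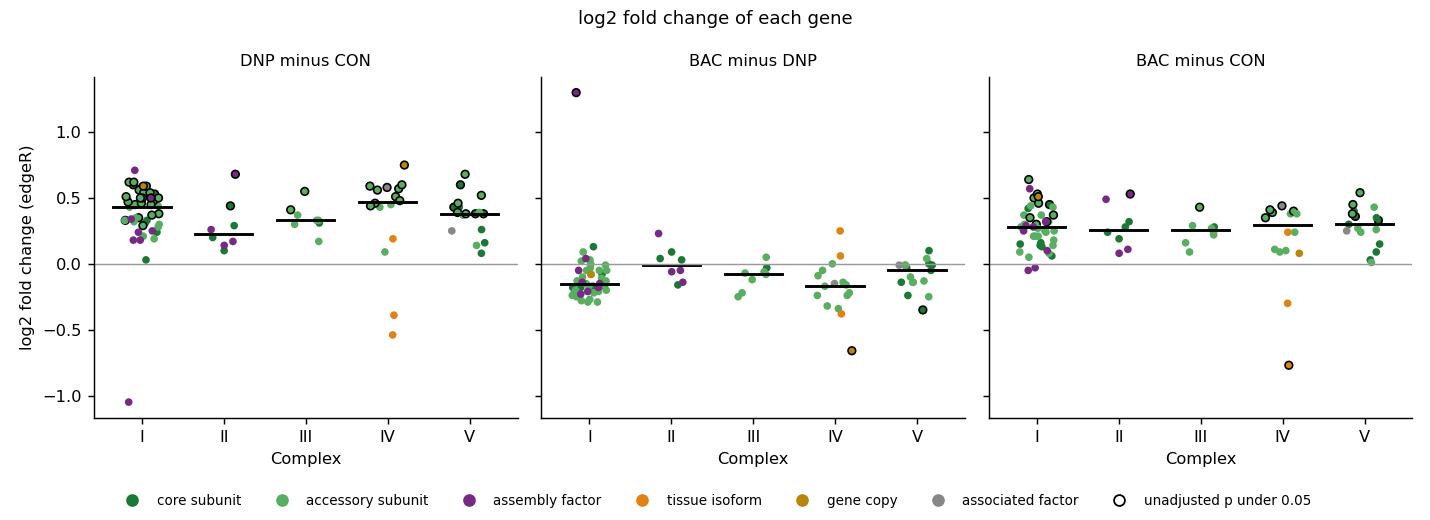
The edgeR log2 fold change of each of the 94 genes in 3 comparisons, by complex, with colour for role, a black ring for an unadjusted p under 0.05 and a bar for the median of the complex. In DNP minus CON the medians run from 0.23 in complex II to 0.47 in complex IV, and in BAC minus DNP from −0.17 to −0.01.

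Complex I had a median log2 fold change of 0.43 in DNP. For 32 of its 45 genes DNP lay above CON without overlap, against 9.59% of all genes. An unadjusted p under 0.05 was given to 25, against 11.2% of all genes. Its 29 accessory subunits, which surround the catalytic core, had a median of 0.45 with 20 at that p, and its 7 core subunits 0.33 with 3. Ndufa2, an accessory subunit with a thioredoxin-like fold, had 40.7, 43 and 45.7 CPM in CON, 65.3, 59.4 and 65.4 in DNP and 51.7, 63.7 and 67.8 in BAC. Ndufb11, an accessory membrane subunit encoded on the X chromosome, had 51.9, 60.2 and 54.9 CPM in CON, 77.9, 77 and 75.5 in DNP and 67, 65.5 and 72.5 in BAC. For both genes all 6 diabetic brains were above all controls. Ndufa2 had a log2 fold change of 0.56 ± 0.14 (SE, n = 3 per group) and Ndufb11 of 0.46 ± 0.12, each with an edgeR adjusted p of 0.302. Ndufa6, whose promoter is shown above, had 41.1, 46.5 and 46 CPM in CON, 73.9, 56.4 and 64.2 in DNP and 60.4, 51.6 and 71.5 in BAC, a log2 fold change of 0.54.

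Among the core subunits of complex I, those that carry the flavin and the iron-sulphur clusters, the values ran from 0.03 to 0.60. Ndufv2, which holds an iron-sulphur cluster of the NADH-binding module, had 72.2, 83.4 and 81.1 CPM in CON and 153, 100 and 106 in DNP. Ndufs1, the largest core subunit, had 137, 158 and 135 CPM in CON, 182, 125 and 133 in DNP and 182, 127 and 174 in BAC. Its groups overlapped, and its 3 highest libraries were DNP 1, BAC 1 and BAC 3, the 3 in which markers of brainstem and spinal cord were high.

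The 8 assembly factors of complex I had a median of 0.24, with 1 at an unadjusted p under 0.05, Ndufaf8, or 12.5% against 11.2% of all genes. Ndufaf4 had the largest difference of all members and went the other way. It had 27.5, 9.55 and 24.9 CPM in CON, 10.6, 10.6 and 8.67 in DNP and 31.7, 9.8 and 32.1 in BAC. Its libraries fell into a high set of 4, between 24.9 and 32.1 CPM, and a low set of 5, between 8.67 and 10.6. Each group of CON and BAC held both levels. The log2 fold change was −1.05 ± 0.50 in DNP versus CON, with an edgeR adjusted p of 0.467. It was −2.27 with the regional covariates and −0.61 in limma on log2(FPKM + 1). Ndufb4c, a copy of the accessory subunit gene Ndufb4, had 20, 19.2 and 21 CPM in CON, 30.1, 28.9 and 31.5 in DNP and 24.4, 30.2 and 31.2 in BAC, a log2 fold change of 0.59 ± 0.14 with an edgeR adjusted p of 0.294.

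Complex II, whose enzyme is also part of the tricarboxylic acid cycle, had the smallest median, 0.23. Of its 8 genes 2 had an unadjusted p under 0.05, against 11.2% of all genes. Differences between complexes were not tested. Sdhb, the iron-sulphur subunit, had 96.2, 93.2 and 95.2 CPM in CON, 137, 123 and 125 in DNP and 108, 109 and 127 in BAC, and its log2 fold change was 0.44 ± 0.12 with an edgeR adjusted p of 0.325. Sdha had 415, 452 and 400 CPM in CON, 581, 395 and 385 in DNP and 475, 395 and 574 in BAC, and its log2 fold change was 0.10 ± 0.21 with an edgeR adjusted p of 0.897. Sdha and Sdhb, which form the head of the enzyme together, thus differed in pattern: the diabetic brains were all above the controls for Sdhb and overlapped with them for Sdha. The highest Sdha levels were in DNP 1, BAC 1 and BAC 3, which also held the most brainstem marker RNA, and the Sdha value turned to −0.06 without the 4 libraries named above and to −0.04 with the covariates.

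The membrane anchors of complex II lay between them. Sdhc had 61.4, 82.9 and 55.1 CPM in CON, 91, 76.5 and 76 in DNP and 79.8, 71.5 and 97.1 in BAC, with a log2 fold change of 0.29. Sdhd had 59.6, 67.9 and 55.3 CPM in CON, 82.4, 64.2 and 63.4 in DNP and 74.9, 58.8 and 82.9 in BAC, with 0.20. For neither were DNP and CON apart, and both values moved with single libraries: Sdhc ran from 0.17 without CON 3 to 0.47 without CON 2, and Sdhd was 0.07 without DNP 1 and 0.13 without CON 3. With the length offset Sdhc had 0.19 and Sdhd 0.07, and with the regional covariates Sdhc had 0.47. The assembly factor Sdhaf4, which helps to join flavinated Sdha to Sdhb, had 8.09, 8.84 and 9.34 CPM in CON, 15.5, 12.6 and 13.9 in DNP and 11.3, 13.6 and 13.2 in BAC. Its log2 fold change of 0.68 ± 0.17 was the largest of complex II, with an edgeR adjusted p of 0.297. Sdhaf3 had a log2 fold change of 0.26, which was −0.10 without DNP 1 and 0.45 without DNP 2.

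Complex III had a median of 0.33. Of its 8 genes 2, Uqcrb and Uqcrh, had an unadjusted p under 0.05, against 11.2% of all genes. Uqcrh had 58.8, 64 and 54.8 CPM in CON, 98.2, 79.9 and 81.9 in DNP and 75.8, 68.9 and 94.5 in BAC. Uqcrb had 23.5, 27.6 and 28.6 CPM in CON, 37.8, 33.3 and 34.5 in DNP and 24.3, 28.5 and 36 in BAC. Both separated DNP from CON, with log2 fold changes of 0.55 and 0.41. Uqcrfs1 had 90.8, 105 and 87.8 CPM in CON and 131, 108 and 112 in DNP, a log2 fold change of 0.31 (0.18 with the length offset), and Uqcrc2, a structural core protein of the complex, had 0.17.

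Complex IV had the highest median, 0.47. Of its 16 genes 10 had an unadjusted p under 0.05, against 11.2% of all genes, 8 of them among its 11 accessory subunits. Cox6c had the smallest p of all members. It had 67.9, 59.1 and 61.7 CPM in CON, 92.9, 88.1 and 98.2 in DNP and 73.4, 86.2 and 89.6 in BAC, a log2 fold change of 0.57 ± 0.13 with an edgeR adjusted p of 0.294. Cox6b1, which joins the monomers of the enzyme on the side of the intermembrane space, had 90.9, 85.7 and 93.9 CPM in CON, 150, 115 and 133 in DNP and 109, 115 and 130 in BAC, a log2 fold change of 0.56 ± 0.14 with an edgeR adjusted p of 0.306. For both genes all 6 diabetic brains were above the controls. With the regional covariates Cox6c had 0.36.

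Cox7a2l, a factor linked to the assembly of complexes III and IV into supercomplexes, had 99.6, 79.3 and 85.6 CPM in CON, 142, 128 and 126 in DNP and 113, 117 and 128 in BAC. Its log2 fold change was 0.58 ± 0.13 with an edgeR adjusted p of 0.294, and 0.26 with the regional covariates. Cox4i1, the ubiquitous form of the regulatory subunit that binds ATP, had 273, 194 and 250 CPM in CON, 398, 348 and 333 in DNP and 250, 312 and 351 in BAC, with a log2 fold change of 0.59, which was 0.10 with the regional covariates and 0.38 without the 4 libraries. The most abundant genes of the complex were less even between mice. Cox8a had 219, 186 and 238 CPM in CON, 227, 316 and 332 in DNP and 162, 318 and 210 in BAC, and its 3 lowest diabetic libraries were again DNP 1, BAC 1 and BAC 3. The isoforms Cox6b2 and Ndufa4l2 were 2 of the 3 members with a lower level in DNP, at −0.54 and −0.39, neither with an unadjusted p under 0.05. Cox6b2 had 1.99, 4.21 and 1.83 CPM in CON, 2.03, 1.3 and 2.17 in DNP and 3.63, 1.52 and 1.39 in BAC, and its sign turned to 0.47 with the regional covariates, as that of Ndufa4l2 did to 0.07. Without CON 2 the values were −0.07 for Cox6b2 and −0.18 for Ndufa4l2, and without DNP 2 they were −0.36 and −0.21.

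Complex V had a median of 0.38, and its core and accessory subunits had medians of 0.38 and 0.39. Of its 17 genes 9 had an unadjusted p under 0.05, against 11.2% of all genes. Atp5e, a subunit of the central stalk, had 49.1, 44.3 and 48.7 CPM in CON, 60.3, 78.5 and 76.2 in DNP and 53.6, 64.6 and 64.4 in BAC. All diabetic brains were above the controls, and the log2 fold change was 0.60 ± 0.15 with an edgeR adjusted p of 0.302. Atp5b, by contrast, had 926, 1070 and 923 CPM in CON, 1220, 925 and 943 in DNP and 995, 900 and 1200 in BAC, a log2 fold change of 0.08 with overlapping groups. Atp5b and Sdha thus shared their 3 highest diabetic libraries, DNP 1, BAC 1 and BAC 3. Among the genes for the c subunit of the rotor, which encode the same mature protein, Atp5g3 had 154, 155 and 142 CPM in CON and 233, 182 and 194 in DNP. Atp5g1 had 30.8, 35.3 and 27 CPM in CON and 46.6, 30.6 and 48 in DNP, and both had a log2 fold change of 0.43. That of Atp5g3 was 0.26 with the regional covariates.

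**Figure D4:**
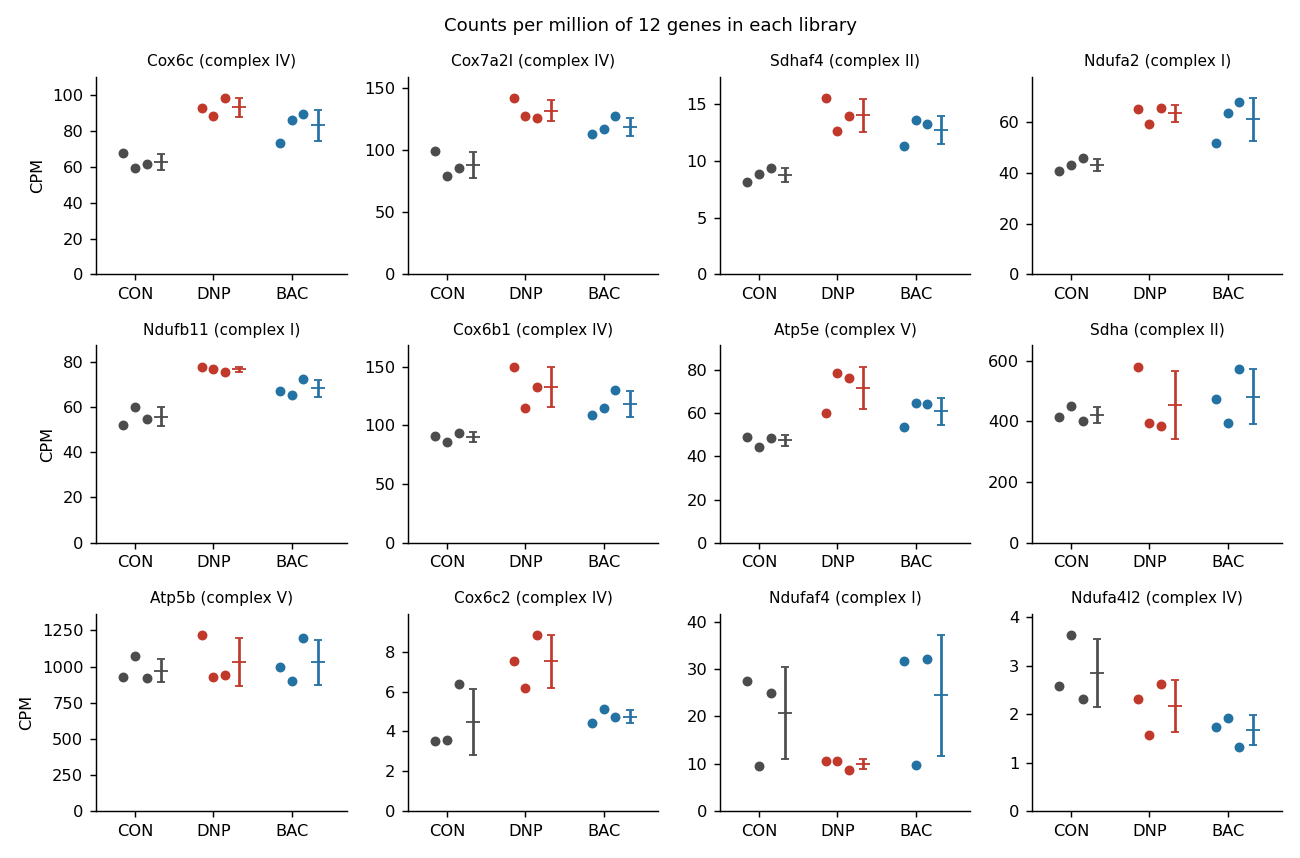
CPM of 12 genes in each library, with each axis starting at 0, points for mice and a bar with whiskers for the mean ± SD of 3 mice. Cox6c, Cox7a2l, Sdhaf4, Ndufa2, Ndufb11, Cox6b1 and Atp5e have every diabetic mouse above every control, while Sdha and Atp5b overlap and Ndufaf4 falls into a high and a low set.

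Over all genes, log2 fold changes in DNP were higher for shorter genes, and the chain genes are short. Their median length, as implied by the counts, FPKM and library totals, was 2520 bases against 5098 for all genes tested. Over all genes the median log2 fold change ran from 0.17 in the shortest of 10 equal length classes to −0.21 in the longest. In the 3 shortest classes, which held 23, 18 and 22 members, the members' medians were 0.46, 0.46 and 0.35, against 0.17, 0.14 and 0.12 for all genes of those classes. The 47 members shorter than their own median had a median of 0.46 with 30 at an unadjusted p under 0.05, against 11.2% of all genes. The other 47 had 0.33 with 18. When the difference shared by genes of the same length was taken out as an offset, the members' median was 0.30 and the count at that p was 31, against 9.26% of all genes.

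**Figure D5:**
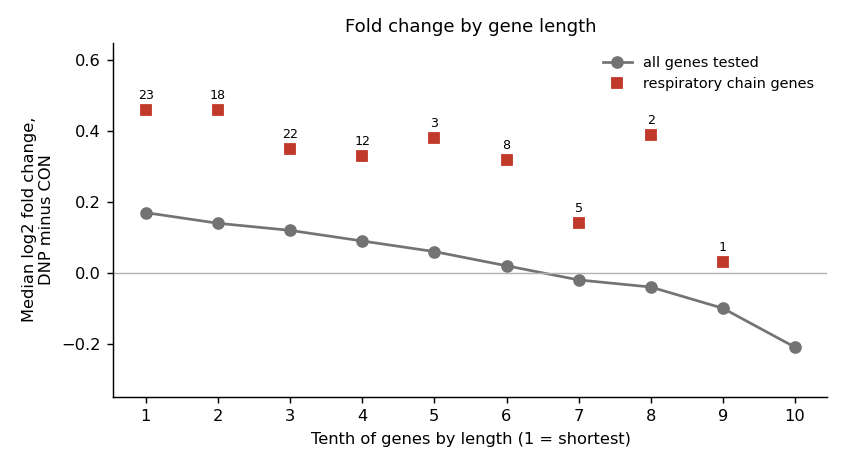
Median log2 fold change in DNP minus CON for 10 equal classes of genes by length, from the shortest to the longest, for all genes tested (grey line) and for the respiratory chain genes (red squares, number of genes above). The grey line runs from 0.17 to −0.21, and the red squares lie above it in each of the 9 classes that hold such genes, from 0.46 to 0.03.

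Several marker lists had the same direction as the chain genes, and their part in the result was not tested. The 5 erythroid markers, haemoglobin genes and Alas2, summed to 218, 188 and 208 CPM in CON, 683, 477 and 592 in DNP and 471, 475 and 735 in BAC, with a median log2 fold change of 1.55 and all 5 higher. The 7 oligodendrocyte markers summed to 3070, 2730 and 2190 CPM in CON, 9160, 3680 and 6980 in DNP and 6890, 2960 and 9370 in BAC, with a median of 1.26 and all 7 higher. The erythroid sums of all diabetic brains lay above those of all controls, as the chain genes did. Neuronal markers had a median log2 fold change of 0.10, astrocyte markers −0.17, microglial markers 0.40, endothelial markers 0.06, pericyte and smooth muscle markers −0.15, choroid plexus markers −0.40 and forebrain markers −0.31. The largest medians were those of the regional lists that split the libraries within groups. Cerebellar granule cell markers had −3.16, all 8 lower, and the 6 tested brainstem and spinal cord markers 6.22, all higher. Of 9 markers of skeletal muscle and heart 5 could be tested, with a median of 0.03.

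Processed pseudogenes and copies of several members share stretches of sequence with them, and how reads were assigned between them was not tested. Of the 94 genes, 79 shared under 10% of their 100-base transcript windows with another annotated gene. These 79 had a median log2 fold change of 0.38 with 40 at an unadjusted p under 0.05, against 11.2% of all genes. The low counts of some members stood beside copies with more. Cox7c, an accessory subunit of complex IV, had a mean of 7.6 CPM and Gm12338, which shares 7.68% of its windows, 57.3, with log2 fold changes of 0.09 and 0.38. Atp5l, the g subunit of ATP synthase, had 12.6 CPM and Gm10221, with 3.21% of its windows, 55.4, with 0.14 and 0.46. Atp5g2 had 2.8 CPM and Gm10175, with 34.7% of its windows, 74.0, with 0.26 and 0.38. Ndufb4 had 6.1 CPM and Ndufb4c, which shares 16% of the windows of Ndufb4, 26.3, with 0.54 and 0.59. Of the windows of Ndufb4c itself, 100% also occur in Ndufb4. In each of these pairs the copy had the larger difference. With Atp5g1 and Ndufa12 the copy also had more counts, but the smaller difference. Atp5g1 had 37.9 CPM and Gm10039, with 5.9% of its windows, 66.9, with 0.43 and 0.34. Ndufa12 had 26.8 CPM and Gm15920, with 11.4% of its windows, 36.2, with 0.44 and 0.3. The levels of all these members on their own, Ndufb4c among them, are therefore uncertain. Cox6c overlaps Vps13b in 4.05% of its windows, and Vps13b had a log2 fold change of −0.56.

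BAC and DNP differ by the baclofen treatment of diabetic mice. Chain genes were on balance slightly lower in BAC, with 17 of 94 higher, against 48.1% of all genes, and 77 lower, and a median log2 fold change of −0.13, or 0.911-fold, against −0.01 over all genes. No member passed an adjusted p of 0.05 in edgeR, 0.0% of all genes, or in DESeq2, against 0.0378% of all genes. At an unadjusted p under 0.05 there were 3, a share near the 2.37% of all genes, 1 higher against 1.37% and 2 lower against 1.0%. The medians were −0.15 in complex I, −0.01 in complex II, −0.08 in complex III, −0.17 in complex IV and −0.05 in complex V. Groups did not overlap for 8 members, all lower in BAC, against 3.41% of all genes lower and 3.38% higher. These were Ndufa1, Ndufb4, Ndufb11 and Ndufs5 of complex I, Cox6c2 of complex IV and Atp5d, Atp5h and Atp5o of complex V.

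Marker lists differed between these groups too, and their part in the result was not tested. All 6 endothelial markers were lower in BAC, with a median of −0.51 and 3 at an unadjusted p under 0.05, and summed to 208, 287 and 293 CPM in DNP and 176, 216 and 199 in BAC. All 7 pericyte and smooth muscle markers were lower, with a median of −0.35. All 7 astrocyte markers were higher, with a median of 0.51, and summed to 3180, 3070 and 2570 CPM in DNP and 3630, 3910 and 3570 in BAC. Cerebellar granule cell markers, all 8 higher, had a median of 2.38, the 6 tested markers of brainstem and spinal cord 2.94 and forebrain markers −1.22. Erythroid and oligodendrocyte markers both had −0.05.

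The 3 members at an unadjusted p under 0.05 were Ndufaf4, Cox6c2 and Atp5d. Ndufaf4, with the library values given above, was higher in BAC by 1.3 ± 0.50 on the log2 scale, with the level of BAC 2 inside the DNP range and an edgeR adjusted p of 0.998. The value was 0.04 without the 4 libraries CON 2, DNP 1, BAC 1 and BAC 3, a fit with BAC 2 as the only BAC library. It was 0.69 with the regional covariates and 0.83 in limma on log2(FPKM + 1). Cox6c2, a short copy of Cox6c, had 3.52, 3.56 and 6.39 CPM in CON, 7.53, 6.21 and 8.87 in DNP and 4.43, 5.11 and 4.72 in BAC, a log2 fold change of −0.66 ± 0.28. Atp5d, the delta subunit of the central stalk, had 138, 109 and 122 CPM in CON, 142, 160 and 177 in DNP and 111, 133 and 132 in BAC, a log2 fold change of −0.35 ± 0.15. For Atp5d the BAC brains lay within the range of the controls. Ndufs5, an accessory subunit of complex I, had 27.8, 28.4 and 29.6 CPM in CON, 41.4, 38.1 and 42 in DNP and 30.6, 31 and 38 in BAC, and differed by −0.29 ± 0.13. For these 3 genes edgeR also gave an adjusted p of 0.998. With the regional covariates 8 members, all lower, had an unadjusted p under 0.05, against 4.39% of all genes, with a median of −0.17.

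In the fit without covariates BAC mice still stood above the controls. In BAC versus CON, which shares its control mice with the first comparison, 90 of 94 genes were higher, against 48.2% of all genes, with a median log2 fold change of 0.27. At an unadjusted p under 0.05 there were 23, of which 22 were higher, against 7.76% of all genes in either direction, 4.46% higher and 3.3% lower. Neither edgeR (0.0% of all genes) nor DESeq2 (0.541%) gave any of the 94 an adjusted p under 0.05. The 1 member lower at that unadjusted p was Ndufa4l2, with a log2 fold change of −0.77. The medians were 0.28, 0.26, 0.26, 0.30 and 0.30 in complexes I to V, so that the complexes lay closer together than in DNP versus CON. For 34 members the groups did not overlap with BAC higher, against 7.21% of all genes, and for 1 with BAC lower, against 6.23%. The count of 23 was 8 without BAC 3, against 3.18% of all genes, 5 with the regional covariates, against 10.6%, 12 with the length offset, against 7.1%, and 14 without the 4 libraries with regional markers, against 9.16%.

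With the diabetic groups averaged, 6 mice against 3, 91 genes were higher, against 48.6% of all genes, with a median log2 fold change of 0.35. An unadjusted p under 0.05 was given to 44, all higher, against 11.8% of all genes in either direction and 6.42% higher. Of the 94, edgeR gave 0 an adjusted p under 0.05 and DESeq2 gave 9, all higher, against 1.97% of all genes in either direction and 1.05% higher. In 33 genes every diabetic brain was above every control, against 3.82% of all genes. The medians were 0.36, 0.26, 0.29, 0.41 and 0.35 in complexes I to V. The count of 44 was 23 without CON 1, against 10.5% of all genes, and 31 with the length offset, against 10.1%. With the regional covariates 73 of 94 genes were higher, with a median of 0.25. In that fit 8 had an unadjusted p under 0.05, 6 of them higher. These 8 were a smaller share of the 94 than the 12.2% of all genes.

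Pairs of genes that encode alternative forms of 1 subunit were compared as ratios of length-corrected levels within a library, in diabetic mice against CON. Ndufa4l2, a form known to respond to hypoxia and found in vessel wall cells, relative to Ndufa4, was 5.5%, 6.39% and 4.54% in CON, 3.05%, 2.44% and 3.76% in DNP and 2.65%, 3.38% and 1.76% in BAC. All 6 diabetic brains were below all controls, by 0.97 on the log2 scale, or 0.509-fold (exact permutation test, two-sided, p = 0.0238, the smallest that 6 against 3 mice allow, and 0.0952 after Benjamini-Hochberg adjustment over the 4 ratios). The ratio combines a higher mean of Ndufa4 with a lower mean of Ndufa4l2 in the diabetic groups. Ndufa4 had 64.6, 78.2 and 70.2 CPM in CON, 104, 88.5 and 96.2 in DNP and 90.3, 78.6 and 103 in BAC. Ndufa4l2 had 2.59, 3.64 and 2.32 CPM in CON, 2.32, 1.57 and 2.63 in DNP and 1.74, 1.93 and 1.32 in BAC. The pericyte and smooth muscle markers summed to 205, 245 and 218 CPM in CON, 148, 245 and 226 in DNP and 146, 184 and 168 in BAC, and their part in this ratio was not tested.

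The other 3 ratios overlapped between the groups. Cox4i2, the lung form of Cox4i also found in vessel wall cells, relative to Cox4i1 was 1.5%, 2.36% and 0.771% in CON, 0.749%, 1.66% and 0.992% in DNP and 1.2%, 1.77% and 1.15% in BAC, a difference of −0.22 on the log2 scale (exact permutation test, p = 0.643, adjusted 0.786). Relative to Atp5g3, Atp5g1 differed by 0.05 (exact permutation test, p = 0.786, adjusted 0.786) and Atp5g2 by 0.20 (exact permutation test, p = 0.643, adjusted 0.786). Leaving out 1 library turned the sign of each of these 3.

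Other genes of the pathway were measured in the same libraries. The 13 subunits encoded in mitochondrial DNA, which join the nuclear ones in the same complexes, were all higher in DNP, with a median log2 fold change of 0.40. Their summed CPM was 50400, 40300 and 50000 in CON, 61600, 63400 and 59400 in DNP and 53000, 67000 and 54100 in BAC, and 6 of them, mt-Nd1, mt-Nd2, mt-Nd3, mt-Co2, mt-Co3 and mt-Atp6, had an unadjusted p under 0.05, or 46.2% against 11.2% of all genes. The libraries were prepared from poly(A) RNA, and mitochondrial transcripts carry only short poly(A) tails. The nuclear sum was highest in DNP 1 and the mitochondrial sum in BAC 2, so the mouse with the highest level was not the same for both genomes.

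The 78 mitochondrial ribosomal proteins, which translate the 13 subunits, had a median of 0.24 in DNP, with 71 higher, against 51.4% of all genes, and 13 at an unadjusted p under 0.05, or 16.7% against 11.2% of all genes. They summed to 1860, 1910 and 1870 CPM in CON, 2220, 2150 and 2260 in DNP and 1920, 2020 and 2190 in BAC. Of 14 carriers and other nuclear chain genes, 12 were higher and 3, or 21.4% against 11.2% of all genes, had an unadjusted p under 0.05. These 3 were Coq7, an enzyme of ubiquinone synthesis, at 0.55, Cycs, cytochrome c, at 0.41, and Usmg5, a subunit of ATP synthase, at 0.78. Of 36 assembly factors whose names fall outside the rule, 27 were higher, with a median of 0.20, and 2, or 5.56%, which is under the 11.2% of all genes, had an unadjusted p under 0.05, Uqcc2 of complex III at 0.52 and Atpaf2 of ATP synthase at 0.32.

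Neighbouring pathways had smaller medians. Of 14 enzymes of the tricarboxylic acid cycle 11 were higher, with a median of 0.11, and Idh2, at 0.41, alone had an unadjusted p under 0.05, 7.14% of the list. Of 17 glycolytic rows 14 were higher, with a median of 0.08, and Ldhb, at 0.40, alone had such a p, 5.88% of the list. Both shares are under the 11.2% of all genes. Whether these lists differed from the chain genes was not tested.

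Regulators of mitochondrial gene expression, among them the factors whose motifs were searched in the promoters, had no common direction. Of 13, 6 were higher and the median was −0.03. Nrf1 had a log2 fold change of −0.34, Gabpa −0.27, the mitochondrial transcription factor Tfam 0.03, Esrra 0.14 and the coactivator Ppargc1a 0.01. The 2 with an unadjusted p under 0.05, 15.4% of the list against 11.2% of all genes, were both lower. They were the coactivators Pprc1, at −0.36, and Ppargc1b. Ppargc1b had 14.4, 25.9 and 18.5 CPM in CON, 11.1, 6.76 and 6.7 in DNP and 22.2, 8.35 and 15.1 in BAC, with a log2 fold change of −1.26 in DNP versus CON and 0.90 in BAC versus DNP. All DNP brains were below all controls, and BAC brains overlapped with both groups.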

How the data were processed

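Poly(A) RNA of 9 whole brains was sequenced as paired-end libraries without strand information. The authors assessed the reads with FastQC 0.11.9, filtered them with fastp, removed ribosomal reads, aligned them to GRCm38 with HISAT2 2.1.0 and quantified genes with StringTie 1.3.3b, and the deposited table holds raw counts per gene without normalization. A second deposited table holds FPKM, counts scaled by gene length and by the library total, with no TMM factor. How reads that match several genes were counted is not given in the sources used here.

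Counts were fitted in R 4.3.3 with edgeR 4.0.16. Genes were kept by filterByExpr with its minimum count of 10, TMM factors were applied, the 9 libraries entered 1 quasi-likelihood model with group as the factor, and p-values were adjusted by Benjamini-Hochberg over the 18501 genes tested, with a threshold of 0.05. DESeq2 1.42.0, limma 3.58.1 on log2(FPKM + 1) or log2(FPKM + 0.1), other scalings, no count filter, a gene length offset (a spline with 5 degrees of freedom), regional marker scores as covariates, fits of the compared groups alone, a block for the replicate number, and fits without single libraries were the alternatives. The fits were tested on simulated counts. Between mice of 1 group, chi-square divided by its degrees of freedom was 15.7 to 122, so the counts of mice differed by more than counting error, and the common biological coefficient of variation was 36.5%. The genes and gene lists were chosen with earlier results of these data known.

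Genes named with values in each library were the 8 with the smallest edgeR p in DNP versus CON, the 4 with the smallest in BAC versus DNP, the highest and lowest FPKM in each complex, the subunits of complex II and the genes of the isoform ratios. Further genes are named from the lists. Gene positions came from GENCODE M21 on GRCm38. Windows of 100 bases that a gene's transcripts share with another gene were counted as shared sequence.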

Additional observations from a re-analysis of the deposited data

How the results depend on the processing

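No member passed an adjusted p of 0.05 in any edgeR or limma fit. In DESeq2 the adjusted count was 12 in DNP versus CON and 9 in diabetic versus CON. With cerebellar and brainstem scores as covariates the counts at an unadjusted p under 0.05 were 15 (DNP versus CON), 8 (BAC versus DNP), 5 (BAC versus CON) and 8 (diabetic versus CON), the medians in DNP versus CON were 0.33 in complex I and 0.36 in complex IV, in BAC versus DNP −0.11 in II and −0.13 in V, in BAC versus CON 0.17 over all members, 0.10 in I, 0.10 in II, 0.16 in III and 0.17 in IV, and in diabetic versus CON 0.25, 0.23 in I, 0.18 in II and 0.25 in IV. In that fit Sdha turned to −0.04, Cox6b2 to 0.47 and Ndufa4l2 to 0.07, and Atp5d in DNP versus CON had 0.11, Cox6a1 0.19 and Cox7a2 0.27. With the length offset the counts were 31 (DNP versus CON) and 12 (BAC versus CON), and the medians in DNP versus CON were 0.30, 0.32 in I, 0.13 in II, 0.23 in III, 0.35 in IV and 0.28 in V, in BAC versus CON 0.22 in IV, and in diabetic versus CON 0.26, 0.26 in I, 0.17 in II, 0.20 in III, 0.30 in IV and 0.27 in V. With the 4 libraries left out, a choice made after seeing the data, the BAC versus CON count was 14 with 0.20 in I, 0.13 in II and 0.19 in V, the diabetic median of V was 0.26, Sdha turned to −0.06 and Sdhaf3 to −0.02. limma with a pseudocount of 0.1 FPKM gave 0.38 for complex V in BAC versus CON, and structural subunits alone gave a count of 1 in BAC versus DNP. The cause of each shift was not tested.

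Leaving out 1 library at a time, the counts in DNP versus CON ran from 28 (without CON 1, against 11.2% of all genes) to 49. In BAC versus DNP they ran from 0 to 5 (without BAC 3, against 2.06%). In BAC versus CON they ran from 8 (without BAC 3, against 3.18%) to 29. In diabetic versus CON they ran from 23 (without CON 1, against 10.5%) to 45. The shares of all genes at the other ends of these ranges are not given here. The medians over all members ran from 0.36 to 0.43, −0.20 to −0.05, 0.19 to 0.33 and 0.30 to 0.37. In DNP versus CON complex II ran from 0.16 to 0.31. In BAC versus DNP complex I ran from −0.22 to −0.05, II from −0.06 to 0.05, III from −0.17 to 0.00 and V from −0.12 to 0.01. In BAC versus CON complex I ran from 0.18 to 0.33, II from 0.18 to 0.34, III from 0.16 to 0.28 and IV from 0.21 to 0.36, and in diabetic versus CON complex II from 0.17 to 0.32. Single genes in DNP versus CON ran from −0.06 to 0.15 for Atp5b, −0.12 to 0.98 for Atp5g2, −0.17 to 0.41 for Cox4i2, −0.11 to 0.21 for Sdha, 0.17 to 0.47 for Sdhc, 0.07 to 0.28 for Sdhd, −0.10 to 0.45 for Sdhaf3 and 0.10 (without DNP 1) to 0.45 for Ndufaf6. The ratio of Ndufa4l2 to Ndufa4 ran from −1.1 to −0.84 on the log2 scale, Cox4i2 to Cox4i1 from −0.65 to 0.16, Atp5g1 to Atp5g3 from −0.02 to 0.13 and Atp5g2 to Atp5g3 from −0.28 to 0.73.

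The correlation of deviations from the group means ran from −0.579 to 0.56 between same-numbered libraries and from −0.701 to 0.614 between libraries with different numbers. The libraries also differed within groups in regional markers, so these correlations cannot decide whether the replicate numbers of the labels pair the samples. With the replicate block the counts were 44, 2, 16 and 35 in the 4 comparisons, against 48, 3, 23 and 44 without it, and the medians 0.40, −0.13, 0.27 and 0.35. The shares of all genes in the block fit are not given here.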

Other observations

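Among the assembly factors whose names fall outside the rule, Tmem70, needed for the assembly of ATP synthase, and Pet117, an assembly factor of complex IV, were the 2 of 36 with an unadjusted p under 0.05 in BAC versus DNP, both lower. Tmem70 had 30.7, 35.1 and 27 CPM in CON, 31.2, 31.1 and 35.5 in DNP and 15.1, 29.6 and 14.3 in BAC, so that BAC 1 and BAC 3 stood below the 7 other libraries. Pet117 was close to absent in 6 libraries, at 0.063 to 0.0726 CPM, and had 5.77 CPM in CON 2, 3.84 in DNP 1 and 3.55 in DNP 3. Both patterns split the libraries within groups, as Ndufaf4 did. Cox6a2, the muscle form of Cox6a1 and 1 of the genes under the count minimum, had 98, 21 and 61 raw counts in CON, 20, 37 and 117 in DNP and 3, 45 and 3 in BAC. The pseudogene Ndufab1-ps, left out by the rule on names, had 164, 184 and 197 raw counts in CON, 337, 251 and 285 in DNP and 199, 218 and 354 in BAC, with every diabetic brain above every control.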
